A study of Mus musculus with 12 samples.

Results

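Tyrosine kinases that act just below the plasma membrane of macrophages were followed through the RNA of Fes-/- and wild-type cells. They were Fer, the SRC family genes Lyn, Fgr, Src, Fyn, Yes1 and Lck, and Syk and Btk. These 9 genes were taken by name from the 55487 genes of the deposited table, and 8 of them passed the filter on low counts. Yes1 was not tested. The cells were mouse bone-marrow-derived macrophages, grown from marrow with 20 ng/mL macrophage colony-stimulating factor (M-CSF). There were 4 groups of 3 libraries: Fes-/- macrophages given 1 µg/mL lipopolysaccharide (LPS) for 4 hours, Fes-/- macrophages given PBS, Fes+/+ (wild-type) macrophages given LPS in the same way, and wild-type macrophages given PBS. The sample labels name PBS where the treatment text speaks of no stimulation. Each genotype came from 3 mice, and p-values measure the spread between libraries. How the Fes-/- allele was made is not described in the sources used here.

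SRC family kinases sit at the inner face of the membrane and phosphorylate the ITAM motifs of receptor chains such as FcRγ and DAP12. SYK docks on those motifs through its paired SH2 domains and passes the signal to adaptors, to BTK, to phospholipase Cγ and to the CARD9 branch. In macrophages this route serves Fc receptors, C-type lectins and integrins, and the LPS receptor TLR4 also engages members of it. FER is the closest relative of FES: both carry an F-BAR domain, an SH2 domain and a kinase domain.

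Sequence upstream of the annotated starts is shown first for the genes at the ends of the LPS response, Src and Lck with the highest changes and Fer with the change nearest 0 (TMM scale). The windows are the 250 bases before a transcript start in RefSeq on GRCm38.p6, written 5′ to 3′ on the gene's strand. Src is read on the plus strand at chr2:157424043-157424292. Lck has an upstream start, read on the minus strand at chr4:129573642-129573891, and a downstream start at chr4:129558373-129558622. Fer is read on the plus strand at chr17:63863731-63863980, the most upstream of its 3 annotated starts. Capitals mark matches, on either strand, to the kappaB consensus (searched by name) or to the PU.1 box GAGGAA.
Src: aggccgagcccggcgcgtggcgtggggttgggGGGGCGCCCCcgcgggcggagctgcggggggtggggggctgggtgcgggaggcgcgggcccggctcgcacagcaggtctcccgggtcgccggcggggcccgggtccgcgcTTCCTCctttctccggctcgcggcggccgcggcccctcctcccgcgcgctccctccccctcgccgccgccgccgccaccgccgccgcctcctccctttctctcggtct
Lck upstream start: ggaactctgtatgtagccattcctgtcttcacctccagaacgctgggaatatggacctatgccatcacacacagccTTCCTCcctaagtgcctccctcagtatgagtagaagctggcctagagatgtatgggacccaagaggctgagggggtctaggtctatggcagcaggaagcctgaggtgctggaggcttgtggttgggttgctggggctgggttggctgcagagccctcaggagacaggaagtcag
Lck downstream start: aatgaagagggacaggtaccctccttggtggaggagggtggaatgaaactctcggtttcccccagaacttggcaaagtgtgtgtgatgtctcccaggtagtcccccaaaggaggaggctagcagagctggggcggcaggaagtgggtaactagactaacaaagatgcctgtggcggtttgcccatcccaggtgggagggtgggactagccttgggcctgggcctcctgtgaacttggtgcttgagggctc
Fer: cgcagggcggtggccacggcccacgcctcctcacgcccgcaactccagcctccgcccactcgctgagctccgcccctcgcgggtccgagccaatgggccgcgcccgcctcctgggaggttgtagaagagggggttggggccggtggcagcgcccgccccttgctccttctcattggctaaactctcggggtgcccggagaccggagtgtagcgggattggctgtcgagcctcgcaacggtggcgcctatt
The Src window held a kappaB match 218 to 209 bases before the start and a GAGGAA match, on the opposite strand, 108 to 103 bases before it. The upstream Lck window held a GAGGAA match 174 to 169 bases before the start. The downstream Lck window and the Fer window held neither, and none of these 4 windows held TGANTCA (the AP-1 site) or the interferon response core (GAAA, any 2 bases, GAAA). The kappaB consensus was found in 7.25% of 32851 mouse promoter windows of the same length, GAGGAA in 23.3%, TGANTCA in 6.75% and the interferon response core in 2.98%. A match of this kind describes letters only. The windows of Fgr, Fyn, Btk and Yes1 held no match to any of these. The other Fer starts and a Syk start held GAGGAA, and 1 of these Fer starts also held the interferon response core, which there overlapped the GAGGAA match. Lyn had no window to show.

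Libraries held 61016254 to 101027166 counts, and 15801 genes were tested. Levels are given as TPM, the deposited unit scaled by gene length, and as CPM after TMM scaling, which sets the typical gene's change near 0. The scaling matters for LPS. With TMM the median log2 change of all tested genes was -0.08 in Fes-/- and -0.07 in wild-type macrophages, and with the library total alone it was -1.01 in Fes-/- and -0.98 in wild type. Calls moved with it, from 5424 genes higher and 6150 lower in Fes-/- macrophages and 5464 and 6137 in wild type with TMM, to 2510 and 11064 in Fes-/- and to 2579 and 10828 in wild type with the library total. The 100 most abundant genes took 28.0% to 28.6% of the counts in LPS libraries and 19.9% to 21.8% in PBS libraries. All 18 tested genes of a list of known LPS targets rose in both genotypes with TMM and with the library total. The macrophage list, with all 14 markers detected and led by Lyz2, summed to 22100 to 28500 TPM under LPS and 37600 to 50100 TPM under PBS. Its members went both ways. Lyz2 averaged 10921 TPM under LPS and 23316 under PBS in Fes-/-, and 12337 under LPS and 26104 under PBS in wild type. Fcgr1, Msr1 and Spi1 were higher under LPS in both genotypes. Fcgr1 averaged 921 TPM under LPS and 251 under PBS in Fes-/-, and 1004 under LPS and 272 under PBS in wild type. In bulk RNA, fewer cells of a type and less RNA per cell cannot be told apart. Fes itself averaged 16.3 ± 0.434 TPM in Fes-/- and 77.0 ± 4.89 TPM in wild-type macrophages under LPS, and 64.9 ± 1.58 TPM in Fes-/- and 163.7 ± 9.83 TPM in wild type under PBS (SD, n = 3 each). Fes transcripts were lower, but still present, in the libraries labelled Fes-/-.

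With TMM factors LPS raised most of these kinases, and the rises differed widely in size. Of the 8 tested kinases, 7 were called higher in Fes-/- macrophages, where 34.3% of all tested genes were, and the same number in wild type, where 34.6% were. The exception in both was Fer, and 38.9% of all genes in Fes-/- and 38.8% in wild type were called lower. Gene positions below are on GRCm38, and adjusted p-values are from edgeR's quasi-likelihood test with Benjamini-Hochberg adjustment over all tested genes unless another test is named. The median log2 change of the 8 was 1.94 in Fes-/- and 1.89 in wild type. Src, Lck, Lyn, Fgr and Syk were called higher under each of the scalings tried. When only the library total was used, these 5 were higher (15.9% of all genes in Fes-/-, 16.3% in wild type), Fer and Btk were lower (70% of all genes in Fes-/-, 68.5% in wild type), and Fyn was not called. On log2(TPM + 1) the counts of kinases were the same, beside 15.5% of all genes higher and 70.9% lower in Fes-/-, and 15.9% higher and 69.2% lower in wild type.

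Lyn, which can both drive and restrain signalling in myeloid cells, was the most abundant of the 9 in every group. It had 508, 524 and 483 TPM in Fes-/- LPS libraries and 185, 199.7 and 167 TPM in Fes-/- PBS libraries. Wild-type libraries had 475, 505 and 502 TPM under LPS and 187, 156 and 164 TPM under PBS. The LPS libraries lay far above the PBS libraries in both genotypes. The log2 change was 2.44 ± 0.09 (SE, adjusted p = 4.2e-12) in Fes-/- and 2.49 ± 0.09 (adjusted p = 3.34e-12) in wild type, or 5.41-fold in Fes-/- and 5.62-fold in wild type. By library total the rise was 1.5 in Fes-/- and 1.58 in wild type. Lyn (ENSMUSG00000042228, chromosome 4, 3678115 to 3813122, plus strand) shares 98.762% of 1050 bases with the pseudogene Gm11787, to which only 317 counts were assigned over all 12 libraries. Its exons also overlap the opposite-strand lincRNA Gm26857 over 248 bases, 6.09% of their length. Its level is to that extent uncertain, since no source used here states whether counting used strand.

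Fgr (ENSMUSG00000028874, chromosome 4, 132974095 to 133001910, plus strand), a myeloid SRC family kinase active downstream of integrins and Fc receptors, had 52.0, 39.0 and 60.5 TPM in Fes-/- LPS libraries and 23.2, 19.7 and 14.3 TPM in Fes-/- PBS libraries. Wild-type libraries had 55.9, 69.3 and 60.0 TPM under LPS and 16.0, 15.6 and 18.2 TPM under PBS. LPS and PBS libraries did not overlap, and Fes-/- libraries were more spread out than wild type. The log2 change was 2.39 ± 0.17 in Fes-/- (adjusted p = 3.18e-08) and 2.84 ± 0.18 in wild type (adjusted p = 6.44e-09). By library total it was 1.45 in Fes-/- and 1.92 in wild type.

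Src (ENSMUSG00000027646, chromosome 2, 157418444 to 157471862, plus strand), the founding member of the family, had the highest fold change of the 8. It had 130.1, 95.6 and 195 TPM in Fes-/- LPS libraries, against 4.65, 3.11 and 5.02 TPM in Fes-/- PBS libraries. In wild type it had 175, 198 and 152 TPM under LPS and 5.10, 5.43 and 3.99 TPM under PBS. In LPS libraries Src thus reached the range of Syk, and the Fes-/- LPS libraries were the most spread out. With TMM the rise was 64.5-fold in Fes-/- (95% interval 40.3 to 103, adjusted p = 7.44e-09) and 69.4-fold in wild type (43.4 to 111, adjusted p = 6.4e-09). It was 33.8-fold in Fes-/- and 36.9-fold in wild type by library total. In each genotype 97.7% of all tested genes had a lower log2 change.

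Lck (ENSMUSG00000000409, chromosome 4, 129548344 to 129573641, minus strand), best known as the kinase that starts T-cell receptor signalling, had 1195, 798 and 725 counts in Fes-/- LPS libraries and only 28, 39 and 20 in Fes-/- PBS libraries. In wild type it had 610, 774 and 792 counts under LPS and 29, 14 and 36 under PBS. In TPM these were 13.5, 11.7 and 13.0 in Fes-/- LPS, 0.545, 0.666 and 0.368 in Fes-/- PBS, 11.2, 13.6 and 13.7 in wild-type LPS and 0.445, 0.257 and 0.635 in wild-type PBS libraries. The lowest LPS library was thus far above the highest PBS library. The rise was 47.2-fold in Fes-/- (33.9 to 65.7, adjusted p = 1.03e-11) and 54.7-fold in wild type (39.1 to 76.5, adjusted p = 8.12e-12), and with the library total 24.7-fold in Fes-/- and 29.1-fold in wild type. The T-cell marker list was lower where Lck was higher: its summed level was 6.13 to 7.25 TPM in Fes-/- LPS, 61.8 to 76.4 in Fes-/- PBS, 6.37 to 9.97 in wild-type LPS and 63.9 to 115 in wild-type PBS libraries, most of it Cd28. The CD3 chain genes Cd3d, Cd3e and Cd3g together had 1 count in the 6 LPS libraries and 5 in the 6 PBS libraries, and Trbc1, Trbc2 and Cd8b1 were at 0 in all 12. Of the 13 T-cell markers 2 had more counts under LPS in both genotypes, as Lck did. Cd8a had 8 counts under LPS and 0 under PBS in Fes-/-, and 8 under LPS and 0 under PBS in wild type. Trac had 6 counts under LPS and 1 under PBS in Fes-/-, and 7 under LPS and 0 under PBS in wild type. The part of these few counts in the level of Lck was not tested. The natural killer marker list, led by Klrk1, had a summed level of 7.44 to 10.7 TPM in LPS and 0.149 to 0.383 TPM in PBS libraries. Of its 8 markers Klra4, Klra8, Ncr1, Prf1 and Gzma were at 0 in every library.

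**Figure D1:**
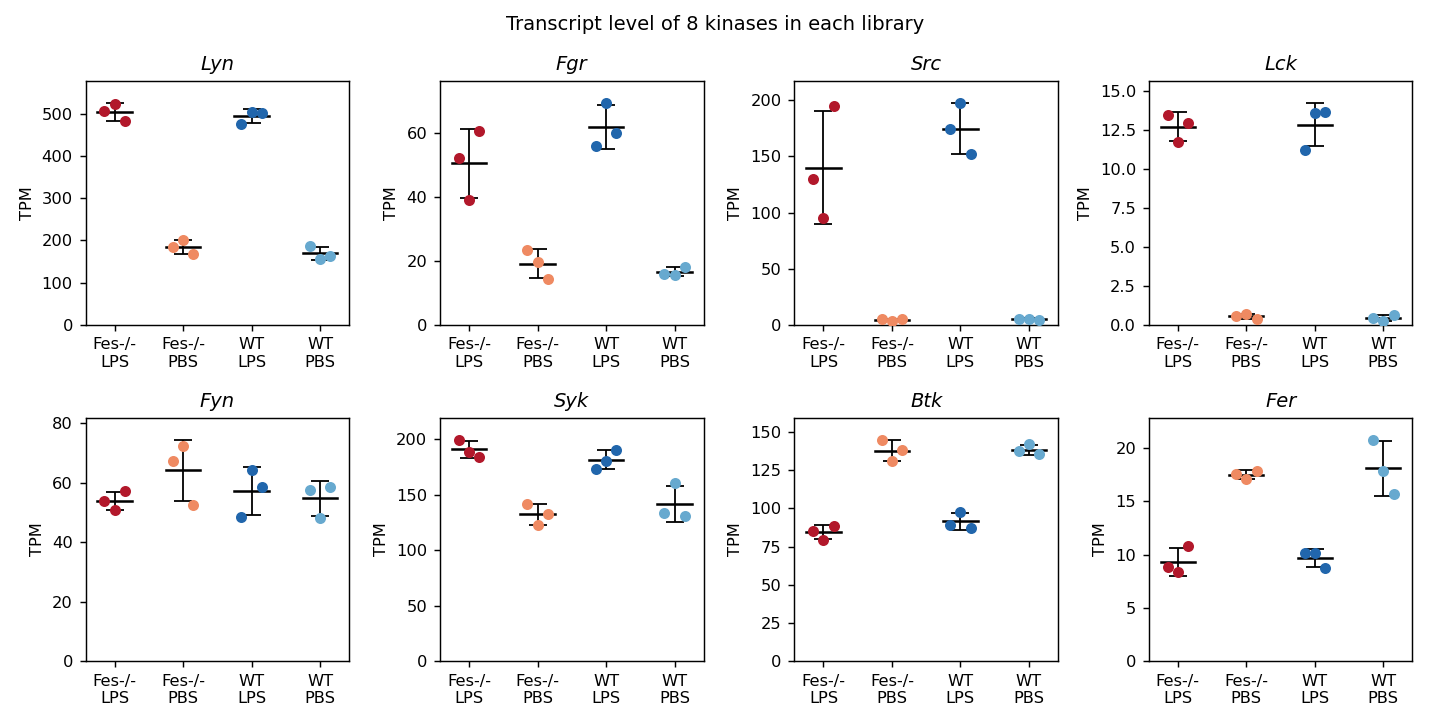
TPM of the 8 tested kinases in each library; points are libraries, horizontal lines are means and bars are SD (n = 3 per group). Lyn, Fgr, Src, Lck and Syk stand higher under LPS than under PBS in both genotypes and Btk and Fer lower, an order that turns for Btk and is lost for Fer on the TMM scale.

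Fyn (ENSMUSG00000019843, chromosome 10, 39368855 to 39565381, plus strand), a broadly expressed member of the family, was called higher under TMM and not called by library total or on log2(TPM + 1). It had 53.7, 50.8 and 57.1 TPM in Fes-/- LPS libraries and 67.2, 72.4 and 52.6 TPM in Fes-/- PBS libraries. Wild-type libraries had 48.5, 64.3 and 58.5 TPM under LPS and 57.7, 48.1 and 58.6 TPM under PBS. On this scale LPS and PBS libraries overlapped in both genotypes. After TMM, Fes-/- had 96.6, 91.2 and 100.6 CPM under LPS and 59.6, 64.3 and 49.9 CPM under PBS. Wild type had 87.4, 117 and 105 CPM under LPS and 54.2, 44.9 and 55.2 CPM under PBS, so neither pair overlapped. Its log2 change was 0.73 ± 0.12 in Fes-/- (adjusted p = 4.54e-05) and 1.00 ± 0.12 in wild type (adjusted p = 1.76e-06) with TMM. With the library total it was -0.21 in Fes-/- (adjusted p = 0.106) and 0.09 in wild type (adjusted p = 0.488). Its change stood above that of 75.8% of genes in Fes-/- and 79.7% in wild type, a rank that did not move with the scaling factors.

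Yes1 (ENSMUSG00000014932, chromosome 5, 32611171 to 32687057, plus strand), the broadly expressed close relative of SRC, was at the limit of detection. It had 4 counts over the 3 Fes-/- LPS libraries, 9 over Fes-/- PBS, 10 over wild-type LPS and 4 over wild-type PBS, no more than 0.043 TPM in any library. With so few counts no change was detectable at this depth, and part of its exons overlaps an opposite-strand gene model.

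Syk (ENSMUSG00000021457, chromosome 13, 52583173 to 52648792, plus strand), the kinase that binds phosphorylated ITAMs, rose moderately and under each scaling tried. It had 199, 189 and 184 TPM in Fes-/- LPS libraries and 142, 123 and 132 TPM in Fes-/- PBS libraries. In wild type it had 173, 180.5 and 191 TPM under LPS and 134, 160.5 and 131 TPM under PBS. The groups did not overlap, with 1 wild-type PBS library closest to the LPS libraries. The log2 change was 1.5 ± 0.09 in Fes-/- (adjusted p = 1.41e-09) and 1.30 ± 0.09 in wild type (adjusted p = 7.08e-09). Scaled by library total, it was 0.57 in Fes-/- (adjusted p = 2.6e-05) and 0.39 in wild type (adjusted p = 0.000928).

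Btk (ENSMUSG00000031264, chromosome X, 134542336 to 134583570, minus strand), the TEC family kinase that acts after SYK, turned direction with the scaling. It had 85.4, 79.5 and 88.2 TPM in Fes-/- LPS libraries and 144, 130.5 and 138 TPM in Fes-/- PBS libraries. Wild-type libraries had 89.1, 97.8 and 87.1 TPM under LPS and 138, 142 and 135 TPM under PBS. In TPM the LPS libraries were all lower. After TMM they were all higher. Fes-/- libraries then had 111, 103 and 112 CPM under LPS and 92.1, 83.4 and 94.2 CPM under PBS, and wild-type libraries 116, 128 and 112 CPM under LPS and 93.0, 95.2 and 91.6 CPM under PBS. The log2 change with TMM was 0.27 ± 0.07 in Fes-/- (adjusted p = 0.00414) and 0.35 ± 0.07 in wild type (adjusted p = 0.00063), and with the library total it was -0.66 in Fes-/- (adjusted p = 3.59e-07) and -0.57 in wild type (adjusted p = 2.12e-06). It stood above 63.1% of all genes in Fes-/- and 65.1% in wild type.

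Fer (ENSMUSG00000000127, chromosome 17, 63863062 to 64139496, plus strand), the relative of FES, was the kinase whose change lay nearest to the median of all genes with TMM and with the library total, while on log2(TPM + 1) Btk lay nearer. It had 8.81, 8.34 and 10.8 TPM in Fes-/- LPS libraries and 17.5, 17.1 and 17.9 TPM in Fes-/- PBS libraries. In wild type it had 10.2, 10.2 and 8.75 TPM under LPS and 20.8, 17.9 and 15.6 TPM under PBS. All LPS libraries were thus below all PBS libraries in TPM. After TMM the groups overlapped. Fes-/- libraries then had 17.0, 16.0 and 20.3 CPM under LPS and 16.6, 16.3 and 18.2 CPM under PBS, and wild-type libraries 19.6, 19.8 and 16.8 CPM under LPS and 20.9, 17.9 and 15.8 CPM under PBS. The log2 change with TMM was 0.06 ± 0.12 in Fes-/- (interval -0.19 to 0.31, adjusted p = 0.654) and 0.04 ± 0.12 in wild type (-0.21 to 0.30, adjusted p = 0.75). By library total it was -0.87 in Fes-/- (adjusted p = 4.4e-06) and -0.87 in wild type (adjusted p = 4.8e-06). Fer stood above 55.2% of all genes in Fes-/- and 54.1% in wild type, with TMM and with the library total. On log2(TPM + 1) Fer stood above 43.6% of genes in Fes-/- and 43.1% in wild type, and Btk above 51% in Fes-/- and 54% in wild type.

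**Figure D2:**
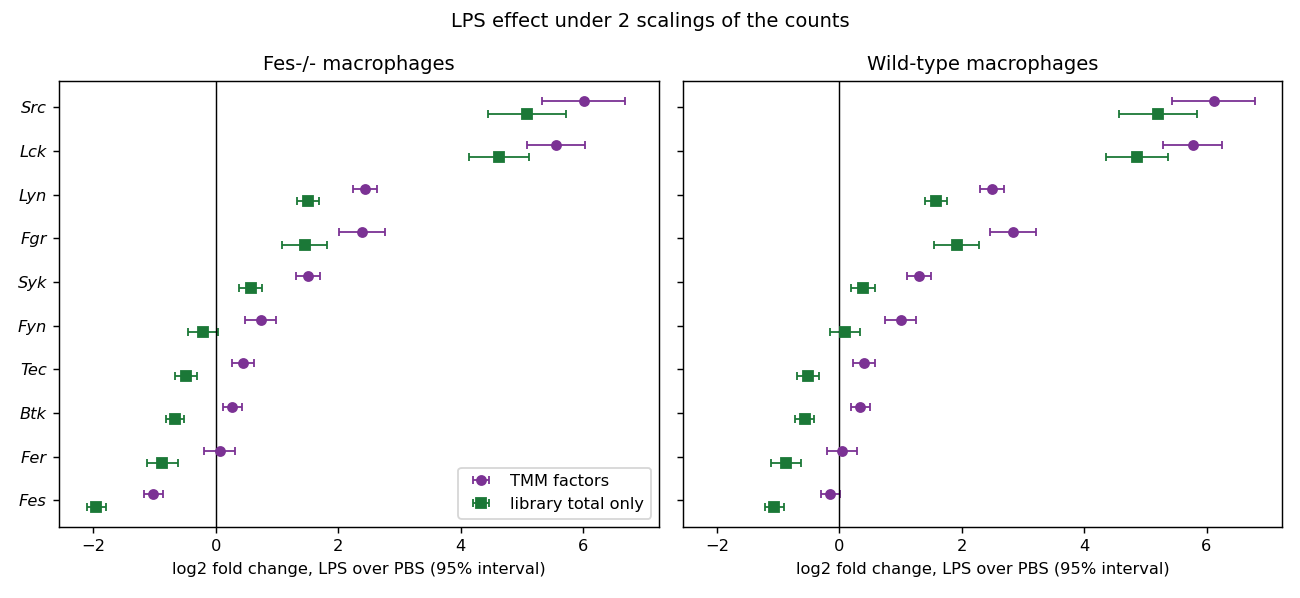
Log2 fold change of LPS over PBS for 8 kinases and the related Tec and Fes, with TMM factors (circles) and with the library total only (squares); bars are 95% intervals, n = 3 per group. Src and Lck are the highest under both; Fyn, Tec, Btk and Fer lie at or above 0 with TMM and near or below 0 with the library total.

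The order of the kinases by TPM differed between LPS and PBS. Under LPS it was Lyn, Syk, Src, Btk in both genotypes, where Syk and Src overlapped. Fyn and Fgr followed with overlapping ranges, then Lck, Fer and Yes1. In Fes-/- PBS libraries it ran Lyn, Btk, Syk, Fyn, Fgr, Fer, Src, Lck, Yes1, and the ranges overlapped between Btk and Syk and between Fgr and Fer. In wild-type PBS libraries Lyn, Syk and Btk overlapped in turn, Fyn followed, Fer and Fgr overlapped, and Src, Lck and Yes1 came after them. Lck lay above Fer in every LPS library and below it in every PBS library. TPM is per length, and its order of genes within a library does not depend on the scaling.

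The 6 SRC family genes described here summed to 762 ± 43.9 TPM in Fes-/- LPS, 272 ± 29.4 TPM in Fes-/- PBS, 801 ± 44.1 TPM in wild-type LPS and 246 ± 20.1 TPM in wild-type PBS libraries (SD, n = 3 each). Lyn made up 66.5% of the sum under LPS and 67.7% under PBS in Fes-/-, and 61.8% under LPS and 68.7% under PBS in wild type. Src made up 18.2% ± 5.49 in Fes-/- LPS and 1.60% ± 0.524 in Fes-/- PBS libraries, and 21.8% ± 2.12 in wild-type LPS and 1.98% ± 0.391 in wild-type PBS libraries. The share of Fyn was 7.07% under LPS and 23.5% under PBS in Fes-/-, and 7.12% under LPS and 22.3% under PBS in wild type. Src was thus the transcript that followed Lyn under LPS, and Fyn the one that followed it under PBS. Shares within a library do not depend on the scaling.

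**Figure D3:**
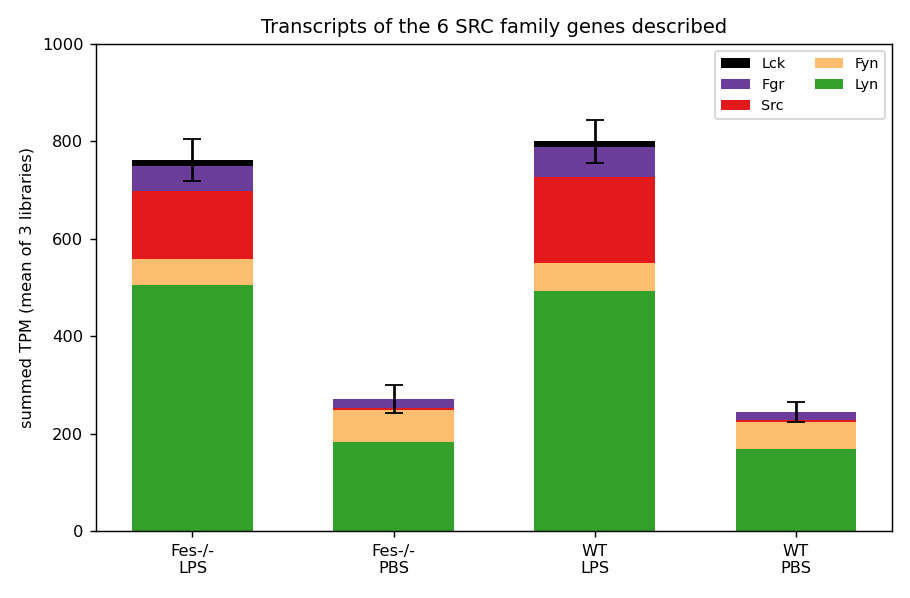
Summed TPM of the 6 SRC family genes described, by group, stacked by gene from group means; the bar is the SD of the sum over 3 libraries. The sum is higher in LPS than in PBS groups, and Src (red) is a wide band under LPS and a thin one under PBS; Yes1 is too low to be drawn.

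The comparison of genotypes asked whether these kinases differ in Fes-/- macrophages, and none of the 8 tested was called by edgeR. Under LPS 0.108% of all tested genes were called between genotypes and under PBS 0.0823%, so calls were rare among all genes. DESeq2 also called 0 of 8 in each comparison, and 0 of 8 had an unadjusted edgeR p under 0.05. The largest values were for Src and Fgr under LPS. Src averaged 140.1 ± 50.4 TPM in Fes-/- and 175 ± 22.6 TPM in wild-type LPS libraries, with overlap. Its log2 fold change was -0.34 (interval -0.87 to 0.20, adjusted p = 0.867). Leaving out Fes-/- LPS library 2, its lowest, moved this to -0.13, and leaving out library 3, its highest, to -0.63. Fgr averaged 50.5 ± 10.8 TPM in Fes-/- and 61.7 ± 6.87 TPM in wild-type LPS libraries, with a log2 fold change of -0.31 (-0.66 to 0.04, adjusted p = 0.796). Btk was lower in all 3 Fes-/- LPS libraries than in the wild-type LPS libraries on the TMM scale, by -0.13 (-0.29 to 0.03, adjusted p = 0.81), which did not pass the test.

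Fer, as the closest relative of Fes, was compared in full. Under LPS it averaged 9.31 ± 1.29 TPM in Fes-/- and 9.70 ± 0.825 TPM in wild type. Under PBS it averaged 17.5 ± 0.39 TPM in Fes-/- and 18.1 ± 2.56 TPM in wild type (SD, n = 3 each). Its log2 fold change, Fes-/- over wild type, was -0.08 under LPS (interval -0.33 to 0.18, adjusted p = 0.938) and -0.10 under PBS (-0.34 to 0.15, adjusted p = 0.975). The intervals leave room for a fold of 0.795 to 1.13 under LPS and of 0.788 to 1.11 under PBS. Relative to Fes in the same library, Fer TPM was 52.6%, 52.1% and 67.2% in Fes-/- LPS and 14.1%, 13.3% and 10.7% in wild-type LPS libraries. It was 26.3%, 26.7% and 28.0% in Fes-/- PBS and 13.5%, 10.3% and 9.57% in wild-type PBS libraries. Fes stayed the more abundant transcript in every library, and the higher ratio in Fes-/- moved with the lower Fes level.

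The remaining values were not called either. Under LPS the log2 fold changes, Fes-/- over wild type, were 0.02 for Lyn (-0.17 to 0.20), 0.06 for Syk (-0.14 to 0.26), -0.10 for Fyn (-0.35 to 0.15) and -0.03 for Lck (-0.38 to 0.33). Under PBS they were 0.07 for Lyn (-0.11 to 0.25), -0.15 for Syk (-0.34 to 0.05), -0.05 for Btk (-0.21 to 0.10) and 0.17 for Fyn (-0.08 to 0.42). The least certain were the low PBS levels of Src (-0.23, -0.83 to 0.37), Lck (0.19, -0.41 to 0.78) and Fgr (0.14, -0.22 to 0.50). A p that misses the threshold does not show that levels were equal.

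The difference of the LPS effects, Fes-/- minus wild type, was called for 0.019% of all genes and for none of these kinases. Fgr had the largest difference, -0.45 (-0.95 to 0.05), then Fyn with -0.27 (-0.62 to 0.08) and Syk with 0.20 (-0.07 to 0.48), each with an adjusted p of 1. The differences of Lck (-0.21), Src (-0.11), Btk (-0.08), Lyn (-0.05) and Fer (0.02) were smaller, and that of Fer was -0.0044 with the library total. Leaving out 1 library moved the value of Fgr between -0.60 and -0.28.

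**Figure D4:**
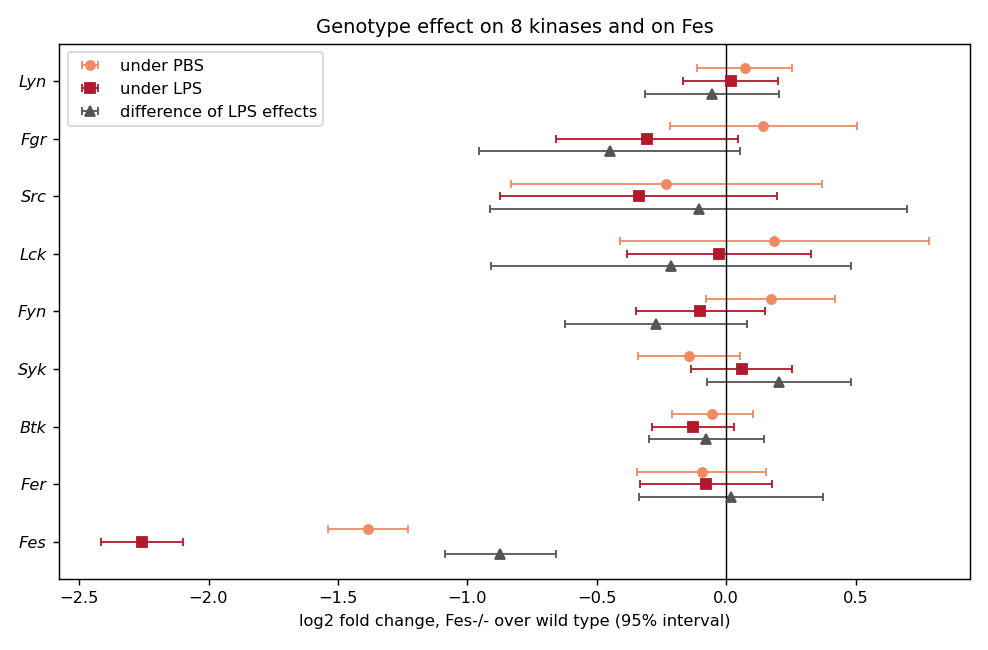
Log2 fold change of Fes-/- over wild type under PBS (circles) and under LPS (squares), and the difference of the LPS effects (triangles), for 8 kinases and Fes; bars are 95% intervals. Intervals of the 8 kinases all include 0, while those of Fes lie below it.

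The genes around these kinases were read from lists by role, and among them Fes alone was called between genotypes. Counts and changes below are for LPS over PBS, with TMM unless the library total is named. Of all tested genes 34.3% were higher and 38.9% lower in Fes-/-, and 34.6% higher and 38.8% lower in wild type. By library total 15.9% of all genes were higher and 70% lower in Fes-/-, and 16.3% higher and 68.5% lower in wild type. Tec, the founder of the BTK family, rose by 0.44 in Fes-/- and 0.41 in wild type but was called lower by library total, at -0.49 in Fes-/- and -0.51 in wild type. Of the 5 other cytoplasmic kinases tested, 3 rose and 2 fell in each genotype, and by library total 2 rose and 2 fell. Among them Abl1 fell by 2.59 ± 0.11 in Fes-/- and 2.52 ± 0.11 in wild type. The related Abl2 rose by 1.44 ± 0.11 in Fes-/- and 1.51 ± 0.11 in wild type.

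Of 16 tested genes listed for restraint of SRC and SYK signalling, 5 rose and 9 fell in each genotype (31.2% higher, 56.2% lower). Their median was -0.29 in Fes-/- and -0.36 in wild type. The list was drawn up by role, and other roles of its genes were not weighed. Csk, the kinase that locks SRC family members through their tail tyrosine, was singled out after its values were seen. It fell by 0.35 ± 0.06 in Fes-/- (adjusted p = 9.26e-05) and 0.34 ± 0.06 in wild type (adjusted p = 0.000118). Pag1, the membrane adaptor that binds CSK, fell by 0.76 in Fes-/- and 0.81 in wild type. Matk, a homologue of Csk, fell by 1.53 in Fes-/- and 1.41 in wild type, and the ubiquitin ligase gene Cblb by 0.75 in Fes-/- and 0.80 in wild type. Ubash3b, whose product is a phosphatase that acts on SYK, rose by 1.76 in Fes-/- and 2.09 in wild type. Of a list of 5 receptor phosphatases that can remove the inhibitory phosphate from SRC family tails, 3 rose and 1 fell in each genotype. Ptprj (CD148) rose by 2.9 ± 0.11 in Fes-/- and 2.89 ± 0.11 in wild type, and Ptprc (CD45) by 1.44 ± 0.09 in Fes-/- and 1.32 ± 0.09 in wild type. The other genes of the restraint list that rose were Ptpn12 (0.82 in Fes-/-, 1.12 in wild type), Ptpn1 (0.73 in Fes-/-, 0.92 in wild type), Ptpn11 (0.86 in Fes-/-, 0.85 in wild type) and Pstpip1 (0.39 in Fes-/-, 0.27 in wild type). These encode tyrosine phosphatases, and in Pstpip1 an adaptor for one. By library total none of these 4 kept its call in Fes-/-. Ptpn1 and Ptpn11 were then not called in either genotype, Ptpn12 was not called in Fes-/- (-0.12, adjusted p = 0.244) and was called at 0.21 in wild type (adjusted p = 0.046), and Pstpip1 was called lower, at -0.55 in Fes-/- and -0.64 in wild type. Of the receptor phosphatases Ptpre turned, with a rise of 0.48 in Fes-/- and 0.50 in wild type with TMM and -0.46 in Fes-/- and -0.42 in wild type by library total, called lower. Csk, Pag1, Matk, Cblb, Ubash3b, Ptprj and Ptprc kept their direction and call. By library total 1 of 16 genes of the restraint list was higher and 12 lower in Fes-/-, and 2 higher and 12 lower in wild type. That 75% lower is near the share of all genes. Of the 5 phosphatases 2 were then higher and 3 lower in each.

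Among ITAM adaptors and the receptors that use them, 10 of 17 rose and 4 fell in each genotype, with a median of 0.84 in Fes-/- and 0.77 in wild type. By library total 6 rose and 7 fell in Fes-/-, and 6 rose and 8 fell in wild type. Clec4e (Mincle), a lectin receptor for fungal and mycobacterial glycolipids, rose by 4.67 ± 0.27 in Fes-/- and 5.09 ± 0.27 in wild type. The IgG receptor gene Fcgr4 rose by 3.82 ± 0.11 in Fes-/- and 3.50 ± 0.11 in wild type, and Fcgr1 by 2.86 in Fes-/- and 2.82 in wild type. Cd247, the CD3 zeta chain, had 1884 counts over the LPS libraries and 9 over the PBS libraries in Fes-/-, and 1187 under LPS and 7 under PBS in wild type. Cd300lb, an activating receptor that couples to DAP12, fell by 5.16 ± 0.20 in Fes-/- and 4.86 ± 0.20 in wild type. Tyrobp, which encodes DAP12 and was singled out after its values were seen, had -0.01 in Fes-/- and 0.02 in wild type, not called. By library total it was called lower, at -0.95 in Fes-/- and -0.90 in wild type.

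Downstream, 13 of 19 adaptors and exchange factors rose and 3 fell in Fes-/-, and 12 rose and 5 fell in wild type, with a median of 0.34 in Fes-/- and 0.32 in wild type. Lcp2 (SLP-76), a scaffold phosphorylated by SYK, rose by 3.61 ± 0.10 in Fes-/- and 3.77 ± 0.10 in wild type. Pik3ap1 (BCAP), which links to PI3-kinase, rose by 2.59 in Fes-/- and 2.47 in wild type. Of 16 phospholipase, PI3-kinase and CARD9 branch genes 6 rose and 8 fell in each (37.5% higher, 50% lower), with a median of -0.17 in Fes-/- and -0.29 in wild type. Malt1, the protease partner of CARD9 and BCL10, had 192 to 208 TPM under LPS and 6.95 to 8.94 TPM under PBS in Fes-/-, and 187 to 233 TPM under LPS and 6.92 to 7.80 TPM under PBS in wild type. Its rise was 5.57 ± 0.12 in Fes-/- and 5.75 ± 0.12 in wild type. Its partner Card9 fell by 1.57 ± 0.08 in Fes-/- and 1.59 ± 0.08 in wild type. Pik3r5, a regulatory subunit of PI3-kinase gamma, rose by 3.35 in Fes-/- and 3.47 in wild type. Inpp5d (SHIP1), the lipid phosphatase that opposes PI3-kinase, fell by 2.27 ± 0.07 in Fes-/- and 2.26 ± 0.07 in wild type. Rasgrp3, a Ras exchange factor, fell by 3.04 in Fes-/- and 3.11 in wild type. By library total these named genes kept their direction and call. The rising Pik3cd, the catalytic subunit of PI3-kinase delta, was then not called (-0.08 in Fes-/-, 0.02 in wild type). Bcl10 was not called in Fes-/- (-0.16) and called lower in wild type (-0.18), after 0.77 in Fes-/- and 0.74 in wild type with TMM. Cttn, which encodes the actin-binding SRC substrate cortactin, was not called (0.15 in Fes-/-, 0.34 in wild type), after 1.08 in Fes-/- and 1.25 in wild type with TMM. The counts then were 5 higher and 12 lower of 19 in each genotype, and 3 higher of 16 with 10 lower in Fes-/- and 11 in wild type. For the 16, these shares lie near those of all genes under either scaling in the share that was higher, and by library total also in the share that was lower.

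**Figure D5:**
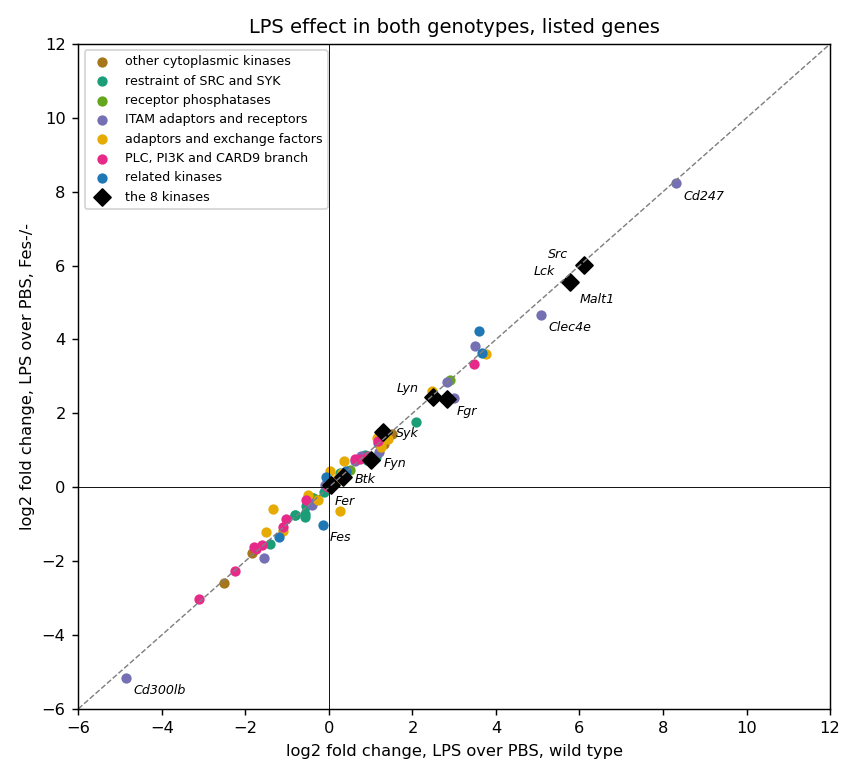
Log2 fold change of LPS over PBS with TMM, Fes-/- (y axis) against wild type (x axis), for the 8 kinases (diamonds) and genes of 7 lists (dots, coloured by list); the dashed line is equality. Most genes lie near the line in both directions.

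Genes with the TMM-scaled log2 CPM pattern most like each kinase over the 12 libraries were taken from 9256 tested genes of at least 5 CPM, as a description, since all share the same treatment step. They were Slamf1 (Pearson r = 0.9988), Plcl2 and Dse for Src, and Mitd1 (0.9993), Gch1 and Pnp for Lck. For Lyn they were Pcgf5 (0.9997), Dync1i2 and Tbc1d1, for Fgr Slc30a4 (0.9967), Orai2 and Ptges, and for Syk Aftph (0.9978), Tnks1bp1 and Arhgef3. For Fyn they were Cd109 (0.9916) and Cd244a, and for Btk Wdr33 (0.9814), Ggta1 and Fam214b. The closest to Fer, Ddx42 (0.9028), Cdkn1c and Pla2g7, were less like it than the closest genes of any other kinase here.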

How the data were processed

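RNA of 12 libraries was sequenced after poly-A enrichment. The deposited tables hold whole-number counts per gene and TPM, a unit scaled by gene length and library, and both were made by the authors. The submitters' processing notes name STAR 2.7.8a, Picard 2.9.0, R 4.1.12, DESeq2 1.34.0 and the builds GRCm38 and mm9 with no role for each. The counting program, the annotation and the use of strand are not given in the sources used here. The TPM values imply the gene lengths of GENCODE M21 on GRCm38 within 1% for 9353 of 9487 genes checked, so positions are given on that build.

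Counts were tested in edgeR 4.0.16 (R 4.3.3) with its default expression filter, TMM factors, 1 mean per group over all 12 libraries (8 residual degrees of freedom), the robust quasi-likelihood F test (two-sided) and Benjamini-Hochberg adjustment over the 15801 tested genes. A gene was called at an adjusted p under 0.05. There were 5 comparisons: LPS over PBS in each genotype, Fes-/- over wild type under LPS and under PBS, and the difference of the LPS effects. Values after ± are SE for log2 changes and SD (n = 3) for levels, and intervals are 95%. Libraries held 61016254 to 101027166 counts. Alternatives were the library total, RLE factors, DESeq2 1.42.0, limma 3.58.1 on log2(TPM + 1) and log2(TPM + 0.1), other filters, fits to the compared groups, a replicate block and leaving out each library. The fitting code was tested on simulated counts.

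The replicate numbers were checked as pairs. Same-numbered LPS and PBS libraries deviated together in wild type (correlations of 0.137 to 0.166). In Fes-/- the correlations were 0.0678, 0.0894 and 0.189 for numbers 1, 2 and 3. By the limit of 0.1 every wild-type number formed a pair, and in Fes-/- only number 3 did. In both genotypes same-numbered libraries correlated more than differently numbered ones.

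The kinases and gene lists were chosen with earlier results of these data known. The genes named are the kinases, Fes, and in each list up to 5 per direction with the largest change among those called in wild type under LPS at 5 CPM or more in either group, or called between genotypes. Csk and Tyrobp fall outside this rule, and some genes that meet it are not reported here. Of other cell types, the marker lists are given as sums, with CPM for Pf4 and S100a9. Genes like each kinase are the 3 of highest Pearson r. Copies were searched with BLAST 2.17.0. All 12 libraries share 1 batch date.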

Additional observations from a re-analysis of the deposited data

Results flagged for a closer look

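Fes was singled out because its response to LPS differed between the genotypes by a test of the difference itself. Its log2 change under LPS was -1.02 ± 0.07 in Fes-/- macrophages and -0.15 ± 0.07 in wild-type macrophages, and the difference, Fes-/- minus wild type, was -0.87 ± 0.10 (interval -1.09 to -0.66, edgeR adjusted p = 0.00556). Fes was lower in 3 of 3 Fes-/- LPS libraries than in any Fes-/- PBS library. The Fes-/- allele is not described in the sources used here. Whether the Fes counts of both genotypes come from the same transcript was not tested. The wild-type change was not called with TMM (adjusted p = 0.0744) and was called at -1.06 with the library total. It was also called with TMM when low counts were not filtered (-0.23, adjusted p = 0.0402), without wild-type PBS library 1 (-0.19, adjusted p = 0.0387) and without wild-type LPS library 3 (-0.19, adjusted p = 0.0487). Groups of 3 libraries are too small for a search for libraries that stand apart within a group.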

How the results depend on the processing

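The direction of Fer and Btk under LPS rested on the scaling in both genotypes, and that of Fyn in Fes-/- only. In Fes-/- Fer had -0.87 with the library total, -0.85 on log2(TPM + 1) and -0.91 on log2(TPM + 0.1), Btk -0.66, -0.70 and -0.71, and Fyn -0.21, -0.24 and -0.24. In wild type Fer had -0.87, -0.83 and -0.89, and -0.044 with no filter on low counts, and Btk -0.57, -0.59 and -0.60. Wild-type Fyn stayed positive, at 0.086, 0.055 and 0.056, but lost its call. The difference of the LPS effects for Fer was -0.0044, -0.023 and -0.028 under the same 3 scalings. Lck under LPS, Fes-/- over wild type, was 0.0054 with no filter. Genes called between genotypes under LPS numbered 37 with DESeq2 and 358 with no filter, under PBS 33 and 315, and for the difference of effects 5 and 90, with 5 on log2(TPM + 1). The cause was not tested.

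Leaving out 1 library at a time gave a Fer change under LPS of -0.044 to 0.13 in Fes-/- and -0.034 to 0.15 in wild type. Fes-/- over wild type under PBS ranged from -0.20 to 0.0015 for Fer, -0.025 to 0.29 for Fgr and -0.083 to 0.50 for Lck. Under LPS it ranged from -0.012 to 0.059 for Lyn, -0.20 to 0.0025 for Fyn and -0.11 to 0.029 for Lck. The difference of effects ranged from -0.084 to 0.12 for Fer, -0.12 to 0.0069 for Lyn, -0.40 to 0.11 for Src and -0.53 to 0.053 for Lck. The kinases called stayed at 7 under LPS and 0 otherwise in each of these fits.

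For the LPS comparisons and the difference the block was the replicate number within its genotype, and between genotypes it was the number alone. With these blocks 11877 genes were called under LPS in Fes-/- and 11862 in wild type. Between genotypes 12 were called under each treatment, and 4 for the difference. No kinase changed its call. Every library correlated best with its own number within its genotype. The fit to the compared groups was not run for the difference of effects, which needs all 12 libraries. Depth limits Yes1, with 27 counts in all, and Lck under PBS.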

Other observations

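In TPM, markers of other cell types moved with LPS in both directions, and their part in the results above was not tested. The mast cell list, led by Hdc, summed to 64.6 to 73.3 TPM in LPS and 0.332 to 0.573 TPM in PBS libraries, with Tpsb2 at 0 throughout. The stromal list, led by Kdr, summed to 17.7 to 24.7 TPM in LPS and 2.04 to 3.09 TPM in PBS libraries, and the dendritic list, led by Ccr7, to 2.22 to 4.16 TPM in LPS and 1.1 to 1.85 TPM in PBS libraries. The B cell list, led by Ighm, summed to 7.01 to 16 TPM in LPS and 46.8 to 117 TPM in PBS libraries, and the neutrophil list, led by S100a9, to 14.5 to 28.5 TPM in LPS and 24.1 to 45.7 TPM in PBS libraries. The erythroid and platelet list, led by Pf4, summed to 644 to 785 TPM in LPS and 760 to 1020 TPM in PBS libraries. The direction in these last lists can depend on the scaling. After TMM Pf4 averaged 212 CPM under LPS and 132 under PBS in Fes-/-, and 219.5 under LPS and 134 under PBS in wild type. S100a9 then averaged 1.68 CPM under LPS and 1.38 under PBS in Fes-/-, and 2.32 under LPS and 2.39 under PBS in wild type.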
